A study of Homo sapiens with 20 samples.

Results

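The transcripts that moved during the first day in differentiation medium were measured in HUDEP-2 cells by comparing day 1 with day 0. HUDEP-2 cells descend from human umbilical cord blood progenitors that were immortalized, and they can be led to form red cell precursors in culture. The comparison rests on 4 of the 20 RNA-seq libraries of the series, 2 of day 0 and 2 of day 1, which were chosen by the day their columns are named for. Day 0 cells grew in StemSpan SFEM with EPO at 3 U/ml, SCF at 100 ng/ml and doxycycline at 1 µg/ml, and the methods of the study also list dexamethasone in this expansion medium. Day 1 cells had been moved to IMDM that kept EPO, SCF and doxycycline at those amounts and also held holo-transferrin at 330 µg/ml, AB human serum at 5%, heparin at 2 U/ml, insulin at 10 µg/ml and L-glutamine at 2 mM. SCF was left out only from day 6 and doxycycline from day 8, so both groups carried them. The basal medium, serum, transferrin, heparin, insulin and the listed dexamethasone changed together, and their parts cannot be told apart. No unchanged-medium culture of day 1 is among the libraries, so medium and a day of culture cannot be told apart either. The labels do not say whether the 2 libraries of a day came from separate cultures, and the p-values measure only the spread between libraries of the same day, pooled over days 0 to 6, which may be technical.

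Erythroid progenitors that leave expansion culture begin to load globin, heme and iron into the cell while they still divide. Sterol synthesis is set by SREBP transcription factors, which are held inactive when cells take up cholesterol and released when sterols run short. Metallothioneins are small cysteine-rich proteins that bind zinc and copper, and their genes are switched on by MTF1, a transcription factor that senses free zinc and binds metal response elements.

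The 4 libraries held 55902899 to 68356040 counts, and 3 counts, the limit that a count of 0 allows, correspond to 0.0439 to 0.0537 CPM (counts scaled to a fixed library total), counting error only. Levels are given as CPM scaled by the trimmed mean of M values (TMM), which compares libraries but not genes. Each day has 1 library in the table that spans all days, called set A, and 1 in the tables of separate days, called set B. Values are given in the order set A, set B. More than sampling noise separated the 2 libraries of a day for 68.0% of 14576 genes (day 0) and 71.3% of 14688 (day 1). This was judged by a binomial z-test at an unadjusted p under 0.05. Any 2 libraries may differ so, and these shares do not single out the table set. The set A deviations of the 2 days had a correlation of 0.487 across 15890 genes, which share libraries and are not independent. The defining genes of the erythroid lineage were high in each of the 4 libraries, with the hemoglobin gene HBB at 18579 to 39593 TPM, a level scaled by transcript length, the transferrin receptor gene TFRC at 1466 to 2579 TPM, the erythroid factor gene KLF1 at 461 to 521 TPM and the stem cell marker CD34 at 0 to 0.0627 TPM.

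Of 15890 genes tested, 156 were called between day 0 and day 1 at an adjusted p under 0.05 by edgeR's quasi-likelihood test with Benjamini-Hochberg adjustment, which is 0.982% of those tested. Levels were higher on day 1 for 90 genes (0.566%) and lower for 66 (0.415%), with median log2 fold changes of 1.06 and -0.98 among the called genes against -0.0043 over all genes tested. All 156 had no overlap between the days and moved the same way in both sets. This follows largely from the call, which used the same libraries. Of the 15890 genes tested, 5209 were higher on day 1 in both sets and 5534 lower in both. Both day 1 libraries stood above both day 0 libraries for 19.4% of all genes tested and below them for 19.8%, so absence of overlap alone was common. When the table set was added to the model as a block, 2099 genes were called (13.2%), 1017 higher (6.4%) and 1082 lower (6.81%), and all 156 were among them. Each of the 4 libraries carried weight. Without the day 0 library of set B, 8 of the 156 were still called, and without the day 1 library of set B, 6. Without the set A library of day 0, 61 were still called, and without that of day 1, 81. The 5 genes called whichever library was left out were MT2A, SLC30A1, NMU, ACAT2 and GCAT. With only the 4 libraries of the 2 days, the same test called 0 genes, with 1227 at an unadjusted p under 0.05, while DESeq2 on 14 libraries called 832 and the edgeR exact test on 4 libraries 245. These counts concern bulk RNA, in which a change in the share of cells of a kind and a change in RNA per cell cannot be told apart.

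**Figure D1:**
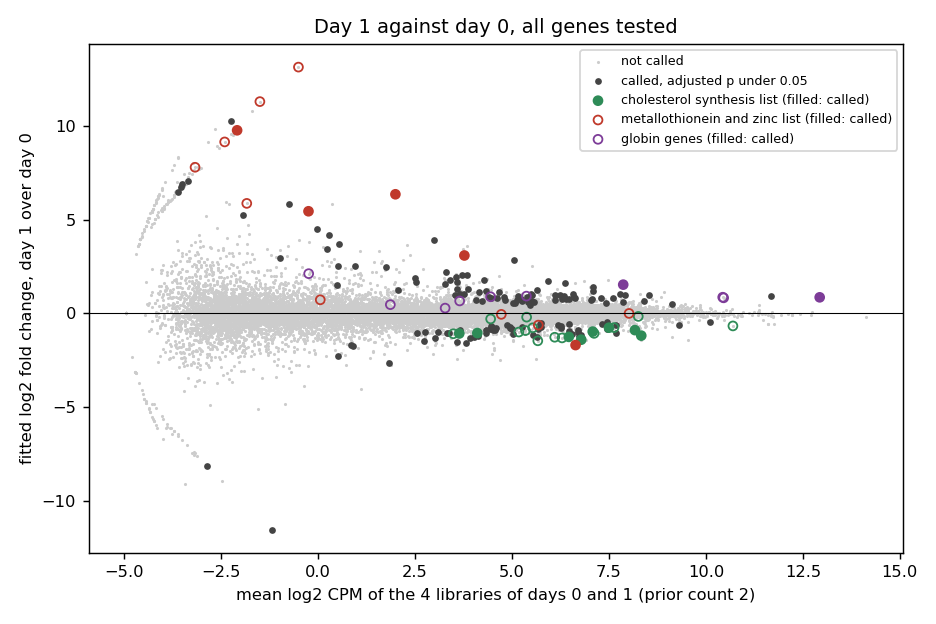
Each point is 1 of 15890 genes, with the mean log2 CPM of the 4 libraries on the x axis and the fitted log2 fold change of day 1 over day 0 on the y axis. Dark points are the 156 called genes, and coloured circles are the cholesterol synthesis, metallothionein and zinc, and globin lists, filled where called. The cholesterol genes lie below 0, the globin genes above it, and the metallothionein genes at low mean levels and large differences, some of them fitted against counts of 0.

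Among called genes with at least 100 counts on average and no overlap between the days, the largest rises included genes that bind or move zinc. MT2A, a metallothionein gene (NCBI Gene 4502, hg38 chr16:56608584-56609497), had 51 and 11 counts on day 0 and 2802 and 2133 on day 1. As CPM this was 0.756 and 0.185 against 48.6 and 30.3, a fitted log2 fold change of 6.37 ± 0.63 (SE, adjusted p = 0.0056). Its paralog MT1X (chr16:56682470-56684196) went from 0.222 and 0.0336 CPM to 7.91 and 3.76 CPM (log2 fold change 5.46 ± 0.85, adjusted p = 0.024). The ranges of day 0 and day 1 lay far apart for both genes, and the set A library was the higher of each day. SLC30A1, which exports zinc across the plasma membrane (chr1:211571568-211579161), rose from 5.62 and 3.81 to 46.0 and 34.9 CPM, 8.56-fold (log2 fold change 3.10 ± 0.23, adjusted p = 0.0011). SLC30A2, which loads zinc into vesicles (chr1:26037252-26046118), had 4 counts in each day 0 library and 170 and 314 on day 1 (log2 fold change 5.83 ± 0.80, adjusted p = 0.015). SLC39A10, a zinc importer (chr2:195575944-195737701), moved the other way, from 189 and 169 CPM to 55.5 and 55.7 CPM (log2 fold change -1.69 ± 0.18, adjusted p = 0.0065).

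The metal response element core was searched on both strands, as TGCACNC and TGCGCNC, in the 250 bases before the RefSeq start of these genes (build GRCh38.p14). The windows of 3 metallothionein genes and 2 zinc transporter genes are shown because MTF1, which senses zinc, binds this element, and the matches are in capitals, read along each gene's strand. The windows lie at chr16:56608334-56608583 (plus strand) for MT2A, chr16:56682220-56682469 (plus) for MT1X, chr16:56669564-56669813 (plus) for MT1H, chr1:211579162-211579411 (minus) for SLC30A1 and chr1:26046119-26046368 (minus) for SLC30A2. MT1H is a metallothionein gene that had 0 counts on day 0.
MT2A: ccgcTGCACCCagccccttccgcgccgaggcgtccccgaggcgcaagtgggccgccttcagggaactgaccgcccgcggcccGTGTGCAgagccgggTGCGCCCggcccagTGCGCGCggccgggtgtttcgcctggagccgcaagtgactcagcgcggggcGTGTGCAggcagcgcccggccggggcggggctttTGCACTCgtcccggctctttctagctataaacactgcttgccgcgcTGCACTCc
MT1X: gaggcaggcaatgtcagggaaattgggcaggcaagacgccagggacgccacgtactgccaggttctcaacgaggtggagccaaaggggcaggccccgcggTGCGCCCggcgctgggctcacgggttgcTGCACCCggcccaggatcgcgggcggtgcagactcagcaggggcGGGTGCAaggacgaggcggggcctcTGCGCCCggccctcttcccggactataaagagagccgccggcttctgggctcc
MT1H: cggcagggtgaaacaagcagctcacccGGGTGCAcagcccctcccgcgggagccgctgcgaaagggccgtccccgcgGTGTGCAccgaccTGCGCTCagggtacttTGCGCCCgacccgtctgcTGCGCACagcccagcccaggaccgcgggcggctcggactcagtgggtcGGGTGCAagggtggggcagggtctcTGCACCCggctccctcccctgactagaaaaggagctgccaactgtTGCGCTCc
SLC30A1: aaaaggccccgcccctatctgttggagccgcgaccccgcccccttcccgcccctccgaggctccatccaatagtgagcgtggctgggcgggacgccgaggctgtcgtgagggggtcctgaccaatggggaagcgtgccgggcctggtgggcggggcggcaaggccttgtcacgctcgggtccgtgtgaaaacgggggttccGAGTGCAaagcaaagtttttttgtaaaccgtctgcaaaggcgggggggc
SLC30A2: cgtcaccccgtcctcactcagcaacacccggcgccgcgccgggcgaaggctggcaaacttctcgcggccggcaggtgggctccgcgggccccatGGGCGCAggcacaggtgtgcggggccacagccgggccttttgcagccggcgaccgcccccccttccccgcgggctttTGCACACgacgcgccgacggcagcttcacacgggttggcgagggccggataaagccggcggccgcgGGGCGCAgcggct
MT1H held 8 matches, MT2A 7, MT1X 4, SLC30A2 3 and SLC30A1 1. Of 35116 such windows, 24.8% held at least 1 match, 6.48% at least 2 and 1.58% at least 3. By gene, at least 1 match was found in 40.3% of the 72 genes called higher that have a window, in 45.3% of the 53 called lower and in 39.0% of the 11074 tested genes that have one. At least 2 matches were found in 13.9%, 15.1% and 11.9%, and at least 3 in 6.94%, 5.66% and 3.01%. Of the 14 genes of the metallothionein and zinc list, 8 had a window, and 5 of these held a match. They were MT1H, MT1X, MT2A, SLC30A1 and the importer SLC39A8, whose levels overlapped between the days and whose window is not shown. SLC30A2 is shown but is not on the list. A match describes letters and not a bound site.

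The metallothionein and zinc transport list holds 14 genes, all tested. By the day-only fit 4 were higher on day 1 (MT1F, MT1X, MT2A and SLC30A1) and 1 was lower (SLC39A10), and with the table set as a block 8 were higher and 2 lower. Over all genes tested, the shares higher and lower were 0.566% and 0.415% by day, and 6.4% and 6.81% with the block. The count called was 3 without the day 0 library of set B, 2 without the day 1 library of set B and 3 without the day 1 library of set A. The list's median log2 fold change was 5.67, or 3.93 with genes at 0 on day 0 set to their lower bound, against -0.0043 over all genes. Members at 0 on day 0 could pass the low-count filter only through later days, so their direction was fixed in advance. The median and the number called higher therefore describe the list and do not test it. MT1F, MT1G, MT1H, MT1M and MT1A had 0 counts in both day 0 libraries. Against 3 counts per library, their day 1 means were at least 37.3-fold higher for MT1F (133 and 87 counts), at least 387-fold higher for MT1G (1638 and 586 counts) and at least 108-fold higher for MT1H (491 and 122 counts). MT1M, with 91 and 51 counts on day 1, was at least 24.3-fold higher, and MT1A, with 43 and 11, at least 9.51-fold higher. Of these, MT1F passed the day-only test (adjusted p = 0.037). MT1G (adjusted p = 0.051 and 9.2e-06 with the block) and MT1H (0.1 and 6.1e-05) passed only with the block, as did MT1M (0.15 and 0.024) and MT1E, with 4 and 0 counts and then 189 and 42 (0.23 and 0.00012), and MT1A passed neither (0.28 and 0.067). Metallothionein genes are near-identical copies, so how reads were divided among the MT1 genes is uncertain. MTF1 itself was at 26.2 and 28.1 CPM on day 0 and 31.6 and 20.9 CPM on day 1 (log2 fold change -0.05 ± 0.24, adjusted p = 0.99). The importer SLC39A8 was at 274 and 245 CPM and then at 254 and 266 CPM, with overlapping ranges. On day 2, MT2A was at 13.0 and 8.12 CPM, MT1G at 4.46 and 0.565 CPM and MT1F at 0.213 and 0.0305 CPM, below both libraries of day 1, whereas SLC30A1 was at 62.0 and 50.02 CPM, above them.

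**Figure D2:**
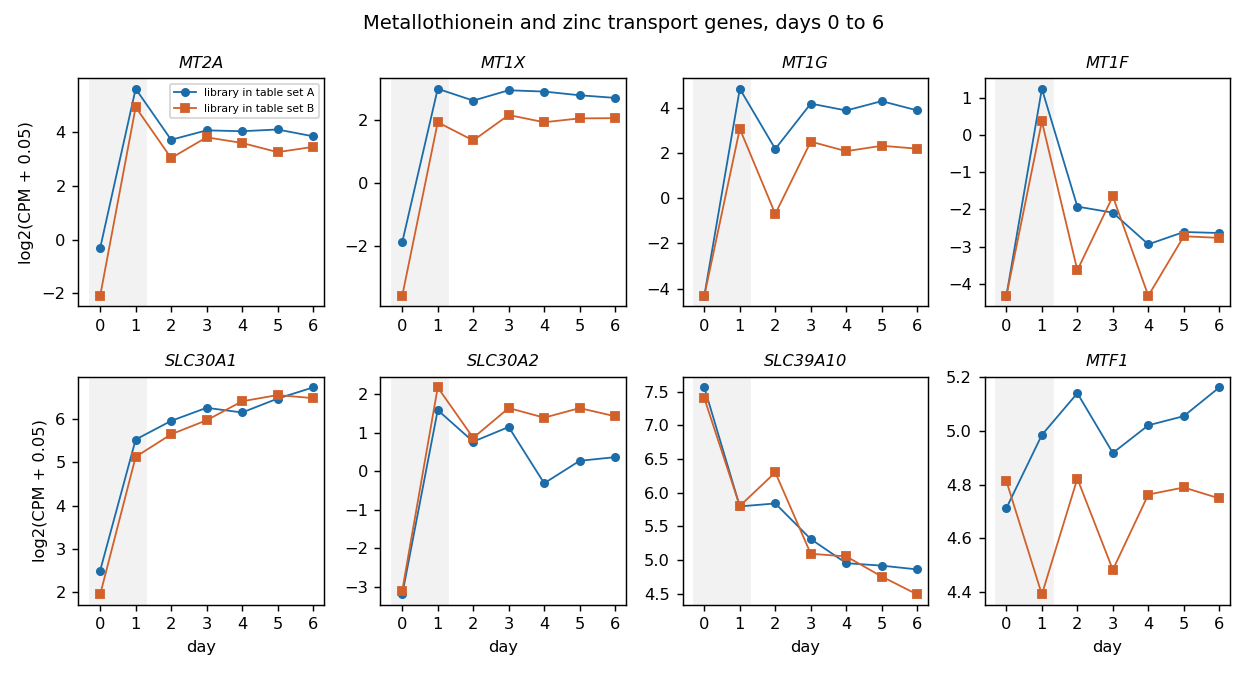
Level of 8 zinc-related genes by day, 0 to 6, as log2(CPM + 0.05) on a separate y axis for each gene, with blue circles for the library of set A and orange squares for that of set B; the grey band marks days 0 and 1. MT2A, MT1G and MT1F are highest on day 1 (MT2A 48.6 and 30.3 CPM), SLC30A1 keeps higher levels through day 6, SLC39A10 keeps lower ones, and the MTF1 libraries of day 1 lie on either side of those of day 0.

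Other genes with large rises had roles in transport and signalling. AQP1, the water channel of the red cell membrane (chr7:30911853-30925516), went from 2.07 and 1.93 CPM to 34.7 and 26.9 CPM (log2 fold change 3.94 ± 0.49, adjusted p = 0.01), and stood at 67.2 and 84.0 CPM on day 2. KCNN4, the calcium-gated potassium channel of red cells, went from 11.6 and 13.4 CPM to 73.2 and 109 CPM (2.87 ± 0.33, adjusted p = 0.0074). NMU, which encodes the secreted peptide neuromedin U, rose from 17 and 8 counts to 247 and 326 (4.50 ± 0.31, adjusted p = 0.0011). Both day 1 libraries were several times above both day 0 libraries for each of these genes. CREB3L3, a membrane-bound transcription factor of the endoplasmic reticulum, had 17 counts in each day 0 library and 240 and 410 on day 1 (4.21 ± 0.41, adjusted p = 0.0056). The organic anion transporter gene SLCO2B1 went from 0.43 and 0.286 CPM to 2.19 and 5.65 CPM (adjusted p = 0.038), TMEM63C, of a family of membrane channels, from 1.35 and 0.353 to 5.22 and 4.84 CPM (adjusted p = 0.036), and VSIR, the immune checkpoint receptor VISTA, from 0.682 and 0.487 to 2.95 and 3.75 CPM (adjusted p = 0.0065). With MT2A, SLC30A2, MT1X and SLC30A1, these are among the 12 largest rises of called genes with at least 100 counts on average and no overlap. Outside the zinc genes, NMU and TMEM63C were still called without the day 0 library of set B, and NMU and CREB3L3 without the day 1 library of set B.

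Transcripts for cholesterol synthesis fell by day 1 for the members that passed the test. All 21 genes of the list were tested and all 21 had a lower level on day 1 in both sets, from the thiolase ACAT2 onward. The same held for 5534 of the 15890 genes tested. Of the 21 listed genes, 8 passed the day-only test and 0 were called higher, while with the table set as a block 17 were called lower. Among all genes tested, 0.415% were called lower by day and 6.81% with the block. The median log2 fold change of the list was -0.99 (range -1.46 to -0.16) against -0.0043 over all genes tested. For 20 of the 21, both day 1 libraries lay below both day 0 libraries, against 19.8% of all genes tested. The summed level of the list was 3720 and 3445 TPM on day 0 and 1929 and 1880 TPM on day 1. The count called was 4 without the day 0 library of set A, 1 without that of set B, 2 without the day 1 library of set A and 1 without that of set B, and ACAT2 was called each time.

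ACAT2, which joins acetyl-CoA units at the start of the pathway (NCBI Gene 39, chr6:159762045-159779112), fell from 173 and 185 CPM to 69.3 and 66.6 CPM, or 2.64-fold (log2 fold change -1.40 ± 0.12, adjusted p = 0.002). IDI1, which isomerizes the isoprenoid unit, fell from 128 and 146 CPM to 49.4 and 65.9 CPM (-1.25 ± 0.20, adjusted p = 0.026). SQLE, the epoxidase of squalene, fell from 476 and 497 CPM to 198 and 231 CPM (-1.18 ± 0.17, adjusted p = 0.015), and TM7SF2, a sterol reductase, fell from 16.6 and 19.6 CPM to 9.77 and 7.51 CPM (-1.07 ± 0.17, adjusted p = 0.024). The 2 days did not overlap for any of these genes, as for all 156 called genes. The other called members were MVK, CYP51A1, FDFT1 and FDPS, with log2 fold changes from -1.05 to -0.76. HMGCS1 (adjusted p = 0.47), PMVK (0.46), LBR (0.75) and NSDHL (0.59) did not pass the day-only test, nor did they pass with the block.

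Among the 10 genes of sterol uptake and sterol sensing, SREBF2, which encodes the SREBP that drives cholesterol synthesis (chr22:41833105-41907308), fell from 248 and 258 CPM to 181 and 152 CPM (-0.61 ± 0.10, adjusted p = 0.032). It was the single member called by day alone, and 6 were called lower with the block, against 0.415% and 6.81% of all genes tested. INSIG1, which retains SREBPs in the endoplasmic reticulum, was at 194 and 201 CPM on day 0 and 56.6 and 91.6 CPM on day 1 (adjusted p = 0.08, and 0.0042 with the block). Of 12 fatty acid synthesis genes, the desaturase FADS1 was called, from 176 and 156 CPM to 83.7 and 65.0 CPM (-1.16 ± 0.20, adjusted p = 0.032), and 5 were called lower with the block. The call of SREBF2 and that of FADS1 were lost without either day 0 library or without the day 1 library of set B.

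**Figure D3:**
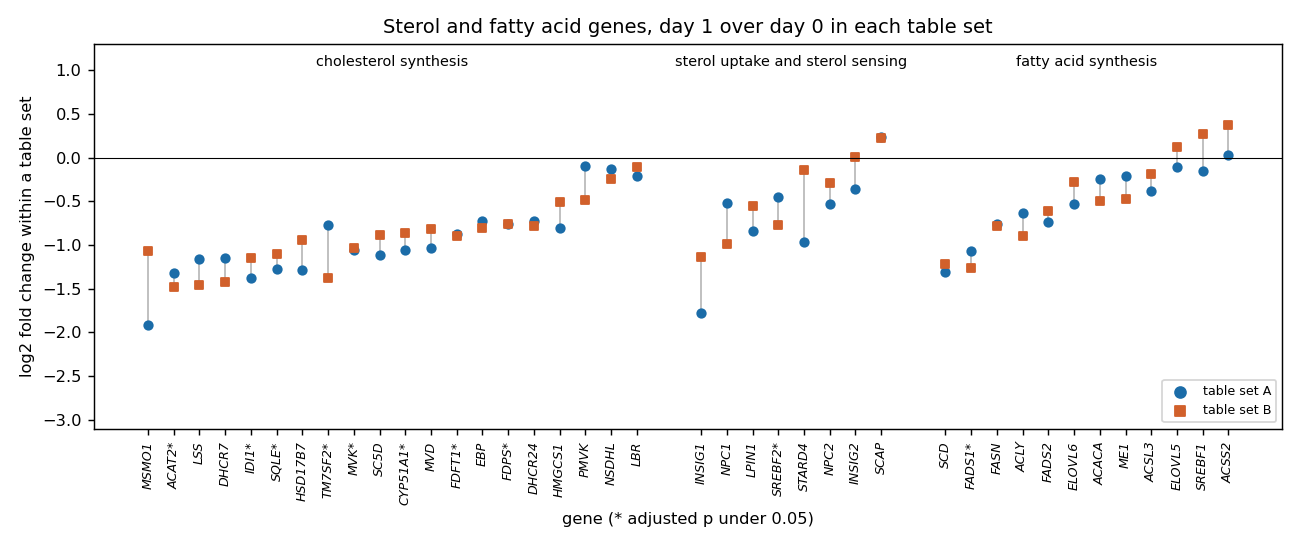
Within-set log2 fold change of day 1 over day 0 for genes of the cholesterol synthesis, sterol uptake and fatty acid synthesis lists, with blue circles for set A, orange squares for set B and a grey line that joins the 2 values of a gene; an asterisk marks an adjusted p under 0.05. Each cholesterol synthesis gene drawn lies below 0 in both sets.

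The lower levels did not all persist. SQLE was at 239 and 316 CPM on day 2 and 349 and 298 CPM on day 3, between its day 1 and day 0 levels, and ACAT2 was at 92.6 and 107 CPM on day 2. SREBF2 was at 171 and 175 CPM on day 2, 216 and 207 CPM on day 3 and 249 and 278 CPM on day 6. These later values are given as a description without a test.

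The SREBF2 window before its RefSeq start is shown because SREBF2 was the 1 gene of both sterol lists in whose window the sterol regulatory element TCACNCCAC was found on either strand, among 16 of 21 cholesterol synthesis genes and 8 of 10 uptake and sensing genes with a window. The window lies at chr22:41832855-41833104 on the plus strand of GRCh38.p14, with the match in capitals.
SREBF2: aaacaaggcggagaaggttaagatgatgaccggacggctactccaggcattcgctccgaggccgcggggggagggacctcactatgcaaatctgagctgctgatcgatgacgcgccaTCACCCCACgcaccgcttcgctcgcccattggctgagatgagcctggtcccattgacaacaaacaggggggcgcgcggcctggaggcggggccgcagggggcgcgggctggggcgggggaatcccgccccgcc
Of the 35116 windows, 0.883% held a match, and by gene 1.13% of the 11074 tested genes with a window did. Of the genes with a window, 2 of 53 called lower held one (SREBF2 and GXYLT1) and 0 of 72 called higher. The CCAAT box, searched as CCAAT on both strands, was in 13 of the 16 cholesterol synthesis genes with a window (81.2%) and in 41.3% of the 11074 tested genes with one. It was in 52.8% of the 53 genes called lower that have a window and in 41.7% of the 72 called higher.

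The genes with the largest falls had varied roles. RTEL1-TNFRSF6B, a read-through transcript on chr20:63657810-63698698, had 414 and 349 counts on day 0 and 0 in both day 1 libraries, at least 127-fold lower against 3 counts per library. Its reads overlap RTEL1 (34.4 and 31.3 CPM on day 0, 41.8 and 31.3 CPM on day 1) and TNFRSF6B (8 and 8 counts, then 66 and 78), a pair named after their values were seen, so the division of reads among the 3 genes is uncertain. On day 2 the read-through was again at 6.05 and 5.34 CPM. MCF2, a guanine nucleotide exchange factor, fell from 6.03 and 11.9 CPM to 1.46 CPM in both libraries (-2.62 ± 0.45, adjusted p = 0.032). ARPP21, a cAMP-regulated phosphoprotein, fell from 139 and 260 counts to 28 and 60 (adjusted p = 0.047), and EPB41L5, a FERM domain protein, fell from 216 and 209 counts to 48 and 83 (adjusted p = 0.048). ARMCX1 went from 22.8 and 25.0 CPM to 9.07 and 7.27 CPM, the zinc finger gene ZNF341 from 1122 and 1428 counts to 427 and 488, and the acyl-CoA synthetase gene ACSM3 from 18.4 and 30.5 to 9.35 and 10.2 CPM. In each case both day 1 libraries lay below both day 0 libraries, which the rule for naming these genes required. PRR19, LRRC6 and the uncharacterized LOC100506990 had log2 fold changes from -1.68 to -1.32, which completes the 12 largest falls with SLC39A10 and ACAT2. Of these 12, RTEL1-TNFRSF6B, SLC39A10 and ACAT2 were still called without the day 0 library of set B, and ACAT2 alone without the day 1 library of set B.

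Some globin and heme genes rose by day 1. HBB, the adult beta globin (NCBI Gene 3043, chr11:5225464-5227071), rose from 6158 and 5473 CPM to 11502 and 9659 CPM, 1.82-fold (log2 fold change 0.86 ± 0.12, adjusted p = 0.015). HBD, the delta globin, rose from 165 and 112 CPM to 421 and 383 CPM, 2.91-fold (1.54 ± 0.28, adjusted p = 0.038). These were the 2 of 10 globin genes called by day alone, and 8 were called higher with the block. Among all genes tested, 0.566% and 6.4% were called higher by these fits. All 10 globin genes were higher on day 1 in both sets, as were 5209 of the 15890 genes tested. The list's median log2 fold change was 0.87. The alpha globins HBA1 (751 and 1341 CPM, then 1746 and 2076 CPM) and HBA2 (805 and 1333 CPM, then 1848 and 1967 CPM) differed more between sets on day 0 and passed only with the block (adjusted p = 0.43 and 0.29 by day, 0.005 and 0.0049 with the block). The fetal globins HBG1 (12.5 and 20.1 CPM, then 26.1 and 34.4 CPM) and HBG2 (24.8 and 35.9 CPM, then 51.2 and 64.3 CPM) likewise passed only with the block (0.0062 and 0.0021). Both pairs are near-identical copies whose reads may have been divided arbitrarily. The embryonic HBE1 had 22 and 28 counts and then 69 and 161 (adjusted p = 0.23, and 0.024 with the block), and the alpha-like HBM was at 9.51 and 10.5 CPM and then 18.6 and 13.2 CPM (0.17 and 0.04). HBQ1 (log2 fold change 0.29 ± 0.28) and HBZ (0.47 ± 0.87) passed neither test. Globin genes held 0.819% and 0.859% of all counts on day 0 and 1.61% and 1.46% on day 1.

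ALAS1, the housekeeping enzyme that starts heme synthesis, rose from 34.3 and 35.4 CPM to 71.9 and 161 CPM (log2 fold change 1.74 ± 0.29, adjusted p = 0.031), with unlike sizes in the 2 sets (1.07 and 2.19 on the log2 scale). It was at 61.2 and 70.02 CPM on day 2 and at 33.4 and 33.1 CPM on day 3, close to day 0. Of 12 heme synthesis genes 2 were called, both higher. With the block 3 were higher and 1 lower, against 6.4% and 6.81% of all genes tested. The lower one was ALAD, the next enzyme after ALAS1, at 155 and 106 CPM and then 104 and 39.1 CPM (adjusted p = 0.43, and 0.037 with the block). ALAS2, the erythroid isoform, was at 296 and 181 CPM and then 366 and 210 CPM, with overlapping ranges (adjusted p = 0.82).

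FTH1, the ferritin heavy chain that stores iron, rose from 2335 and 2457 CPM to 4298 and 4733 CPM (0.91 ± 0.11, adjusted p = 0.0074), the 1 of 20 iron genes called by day, while 4 were higher and 1 lower with the block. The share called over all genes tested was 0.982% by day and 13.2% with the block. The light chain FTL was at 2009 and 2957 CPM and then 3953 and 5049 CPM (adjusted p = 0.097, and 0.0021 with the block). The transferrin receptor gene TFRC overlapped between the days (5729 and 4354 CPM, then 5768 and 3664 CPM; log2 fold change -0.10 ± 0.21). Of 13 erythroid transcription factors 1 was called, GATA1, from 140 and 143 CPM to 199 and 216 CPM (0.55 ± 0.09, adjusted p = 0.026), and 5 were higher and 1 lower with the block. KLF1 was at 330 and 390 CPM and then 389 and 418 CPM (adjusted p = 0.67). Of 13 tested progenitor factors HLF was called, from 69 and 37 counts to 133 and 172 (1.53 ± 0.29, adjusted p = 0.043), while 1 was higher and 3 lower with the block, and GATA2 and MYB had log2 fold changes of 0.18 ± 0.41 and -0.11 ± 0.21. Of 15 red cell membrane genes AQP1 was the 1 called, with a list median of 0.002, and the anion exchanger gene SLC4A1 was at 54.5 and 40.0 CPM and then 111 and 57.9 CPM (adjusted p = 0.46). Without the day 0 library of set B, none of the globin, heme, iron, erythroid factor, progenitor factor and membrane genes was called in any of these 6 lists, and the same held without the day 1 library of set B.

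**Figure D4:**
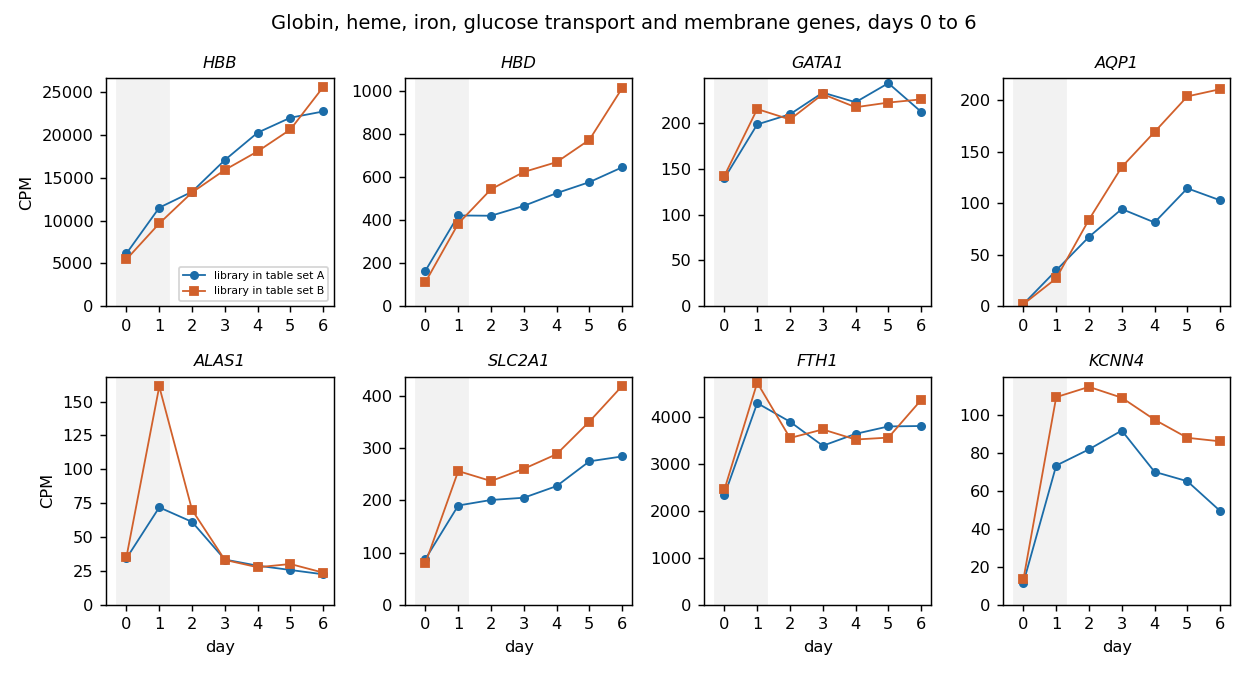
CPM by day, 0 to 6, of 8 genes of globin, heme, iron, glucose transport and the membrane, from 0 on a separate y axis for each gene, with blue circles for set A and orange squares for set B; the grey band marks days 0 and 1. HBB, HBD and AQP1 continue upward after day 1, ALAS1 peaks on day 1 at 71.9 and 161 CPM, and GATA1, FTH1, SLC2A1 and KCNN4 stay above their day 0 levels.

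Genes of redox and nutrient stress gave a few calls. Among all genes tested, 0.982% were called by day and 13.2% with the block. Of 15 tested NRF2 targets, the quinone reductase NQO1 rose from 4.58 and 4.76 CPM to 15.7 and 27.9 CPM (log2 fold change 2.22 ± 0.36, adjusted p = 0.028), and the sulfiredoxin SRXN1 from 60.1 and 68.8 CPM to 106 and 114 CPM (0.77 ± 0.10, adjusted p = 0.015). With the block 10 of the 15 were called higher and 0 lower, and the list median was 0.50. NQO1 was back at 5.83 and 5.37 CPM on day 3. HMOX1, which degrades heme, was at 4.16 and 6.07 CPM and then 15.4 and 12.2 CPM (adjusted p = 0.13, and 0.0083 with the block). Of 24 ATF4 targets, SLC3A2, the heavy chain of amino acid exchangers, was called (103 and 100.0 CPM, then 171 and 178 CPM; 0.79 ± 0.11, adjusted p = 0.015), and 4 were higher and 2 lower with the block. Of 14 tested hypoxia genes, the glucose transporter gene SLC2A1 was called, from 87.8 and 79.8 CPM to 190 and 256 CPM (1.41 ± 0.24, adjusted p = 0.031), with a list median of -0.02, and with the block 3 were higher and 2 lower. Of 15 tested integrin and adhesion genes, ICAM1 fell from 28.4 and 29.9 CPM to 14.5 and 13.4 CPM (-1.06 ± 0.15, adjusted p = 0.015), and with the block 4 were higher and 2 lower. The calls of NQO1, SRXN1, SLC3A2 and SLC2A1 were lost when either day 0 library or the day 1 library of set B was left out, and that of ICAM1 when either set B library was.

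Lists for the hormones and growth factors of the media had no member called by day. With the block, 13.2% of all genes tested were called, 6.4% higher and 6.81% lower. FKBP5, a gene induced by glucocorticoids, was at 1368 and 1248 CPM on day 0 and 1372 and 1202 CPM on day 1 (log2 fold change -0.02 ± 0.19, adjusted p = 0.99), and PER1, another such gene, had 0.31 ± 0.17. Of 14 tested glucocorticoid genes 1 was called with the block, higher on day 1 (PDK4, 54 and 12 counts, then 93 and 76). None of 15 EPO and KIT signalling genes was called by day. With the block 2 were higher (BCL2L1 and ID1), near the share called over all genes. The receptor genes EPOR (82.2 and 83.1 CPM, then 92.2 and 76.3 CPM) and KIT (694 and 841 CPM, then 510 and 608 CPM) had log2 fold changes of 0.03 ± 0.12 and -0.46 ± 0.23. Of 21 tested immediate early and MAPK feedback genes, 4 were higher and 1 lower with the block. Of 15 tested BMP and TGF-beta genes, 5 were higher and 2 lower with the block. Among them ID3, an inhibitor of helix-loop-helix factors, had 0 counts in both day 0 libraries and 43 and 167 on day 1, at least 32.9-fold higher (adjusted p = 0.11, and 0.00056 with the block), and the inhibitory SMAD6 had 0 and 0 and then 6 and 15 counts. Genes at 0 counts on day 0 could not be lower on day 1. ID1 was at 6.22 and 11.4 CPM and then 15.6 and 24.7 CPM (0.31 and 0.001).

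Cell cycle genes gave no call by day. With the block, 13.2% of all genes tested were called, more than among the replication, mitosis, ribosome biogenesis and interferon genes below. Of 30 DNA replication and 27 mitosis genes, the largest log2 fold change in size was 0.51, the medians were 0.11 and 0.14, and 1 of each was called higher with the block (MCM5 and CDK1). Of 19 G1 cyclins and CDK inhibitors 3 were higher with the block, among them CDKN2B, an inhibitor of CDK4 and CDK6, at 5.08 and 6.99 CPM and then 8.43 and 23.2 CPM (adjusted p = 0.33, and 0.0043 with the block). Of 30 ribosome biogenesis genes 2 were higher and 1 lower with the block. The 16 genes of the unfolded protein response and the 13 of the heat shock response had 0 called by either model, with medians of 0.27 and -0.14. Of 5 tested LXR targets 2, of 11 tested PPAR targets 3 and of 16 tested interferon genes 1 were higher with the block, 18 glycolysis genes gave 2 higher and 2 lower, and 16 p53 targets gave 3 higher and 4 lower, all with 0 called by day. The 8 TRIM genes that the study followed, a family of ubiquitin ligases, had 0 called by either model. TRIM10 was at 5.21 and 3.75 CPM on day 0 and 6.71 and 4.13 CPM on day 1 (0.27 ± 0.33, adjusted p = 0.84), and TRIM58 at 119 and 136 CPM and then 110 and 94.0 CPM (-0.32 ± 0.13, adjusted p = 0.34).

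The summed levels of mast cell, megakaryocyte and eosinophil markers differed more between the table sets than between the days, though single markers did not all do so. The 9 mast cell and basophil markers summed to 1174 and 2133 TPM on day 0 and 1107 and 2887 TPM on day 1, most of it from the tryptase genes TPSAB1 and TPSB2, and 2 of the 9 were at 0 counts in all 4 libraries. The 11 megakaryocyte markers summed to 15.1 and 75.4 TPM and then 13.0 and 81.4 TPM, with ITGA2B at 16.4 and 111.5 CPM and then 11.96 and 119.6 CPM, and the defining PF4 was at 0 counts in each library. Granulocyte and monocyte markers summed to 1.25 to 2.48 TPM, eosinophil markers to 19.97 to 72.3 TPM and lymphocyte markers to 0.297 to 2.96 TPM. The tests covered 5 mast cell and basophil, 4 megakaryocyte, 3 granulocyte and monocyte, 1 eosinophil and 2 lymphocyte markers. None of the tested markers was called by day. With the block 2 were called, MS4A2 lower (393 and 816 counts, then 85 and 104) and ITGB3 higher (26 and 15 counts, then 53 and 192). Over all genes tested, 0.982% were called by day and 13.2% with the block. Ribosomal RNA genes held 2.21% and 1.76% of counts on day 0 and 2.00% and 1.06% on day 1. The part of these markers in the results above was not tested.

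**Figure D5:**
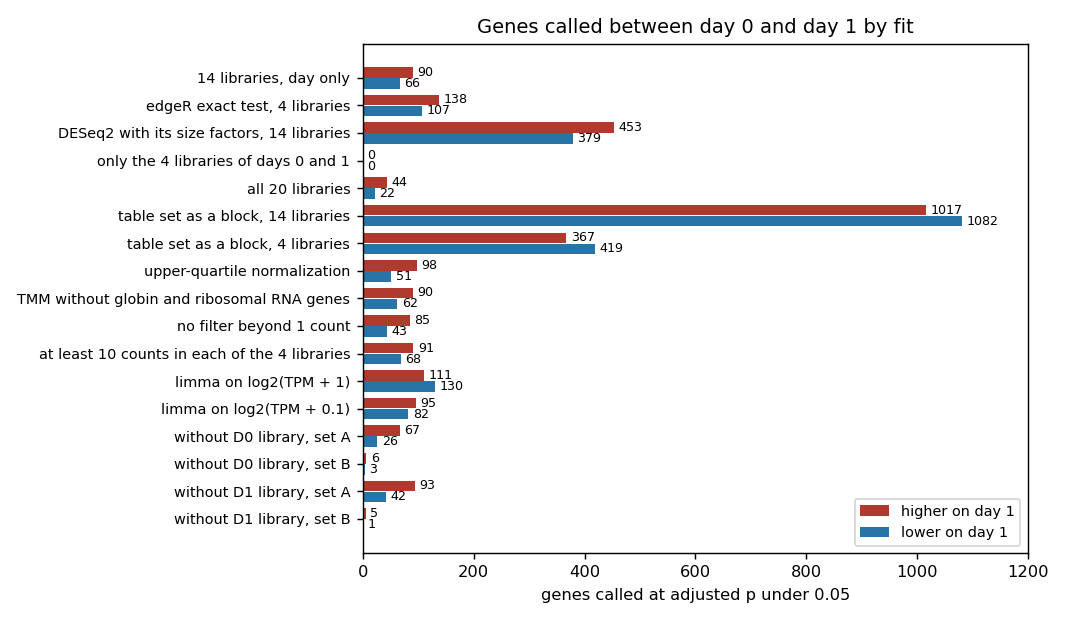
Number of genes called at an adjusted p under 0.05 between day 0 and day 1, higher (red) and lower (blue), for the day-only fit of 14 libraries and each other fit; the bars start at 0. The counts run from 0 with only 4 libraries to 1017 higher and 1082 lower with the table set as a block, and fall to 6 and 3 without the day 0 library of set B and to 5 and 1 without the day 1 library of set B.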

How the data were processed

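RNA was sequenced from 20 HUDEP-2 samples of days 0 to 12. According to the methods and the submitters' processing notes, stranded mRNA libraries were trimmed with Trimmomatic 0.38, aligned to hg38 with HISAT2 2.1.0 and assembled with StringTie 2.1.3b. The authors deposited read counts for each of 170322 transcripts, with TPM values made by the same tools. Here the deposited counts were summed by gene symbol (46425 genes), and the deposited TPM values were summed likewise and used for levels between genes and for limma. The deposited columns name the day but not the replicate. In all, 34 value columns were read, and 29 others (FPKM, TPM of later days and the extra day 0 columns) were not used.

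The main test was edgeR's quasi-likelihood test on the 14 libraries of days 0 to 6, with a coefficient for each day, TMM normalization and a filter on low counts, and genes were called at a Benjamini-Hochberg adjusted p under 0.05. The samples of days 2 to 6 share in the estimate of the spread. Errors are standard errors. The fits were tested on simulated data with known changes. The simulation held no difference between table sets, so it cannot show how the fits behave with the set differences seen here. Alternatives were DESeq2, the edgeR exact test, limma on log2(TPM + 1) and log2(TPM + 0.1), other filters, normalizations and library sets, and each of the 4 libraries left out in turn. Within-set log2 values used a prior count of 2. Sampling noise between the 2 libraries of a day was checked over genes with at least 20 counts.

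Named genes were the 12 largest rises and 12 largest falls among called genes whose days did not overlap and whose 4 libraries averaged 100 counts or more, plus up to 4 called members of each of 35 lists (545 genes), the globin and TRIM genes and defining genes; other list members called only with the block, and the later-day values, were named after their values were seen. Members and lists were chosen with earlier results of these data known. Versions were edgeR 4.0.16, DESeq2 1.42.0 and limma 3.58.1. Promoter windows came from the RefSeq table of GRCh38.p14; genes without a window were not searched. A few genes that the rule names are not reported here.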

Additional observations from a re-analysis of the deposited data

How the results depend on the processing

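No paired analysis was possible because the deposited columns carry no replicate number to pair by. They were paired by table set instead, as a block in alternative fits, since set A deviations from the day means had correlations of 0.375 to 0.579 over the 21 pairs of days. The day-only fit leaves this pairing out. The 156 genes called (90 higher, 66 lower) became 245 with the edgeR exact test (138 and 107), 832 with DESeq2 (453 and 379), 0 with only the 4 libraries of days 0 and 1 (0 and 0, with 1227 at an unadjusted p under 0.05), 66 with all 20 libraries (44 and 22), 2099 with the table set as a block on 14 libraries (1017 and 1082) and 786 on 4 (367 and 419). Limma on log2(TPM + 1) called 241 (130 lower), and 43 were lower with no filter beyond 1 count. Leaving out each library in turn gave 6 to 135 genes, 5 to 93 higher and 1 to 42 lower, with the lowest counts when a set B library was left out. With upper-quartile normalization, TMM without globin and ribosomal RNA genes, at least 10 counts in each library and log2(TPM + 0.1), the total stayed within 1.5 times.

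Of the list genes, 28 were called, 69 with DESeq2, 133 with the block, 0 with only 4 libraries, and 3 to 18 without a library. By DESeq2 and by the block respectively, members called were 3 and 8 for globin genes, 3 and 4 for heme synthesis, 4 and 5 for iron handling, 3 and 6 for erythroid factors, 2 and 4 for progenitor factors, 1 and 3 for the red cell membrane, 16 and 17 for cholesterol synthesis, 3 and 6 for sterol uptake, 2 and 5 for fatty acid synthesis, 4 and 6 for ATF4 targets, 6 and 10 for NRF2 targets, 8 and 10 for metallothioneins and zinc, 3 and 5 for hypoxia, and 1 and 6 for adhesion. With only the 4 libraries each had 0, and with upper-quartile normalization heme synthesis had 1. Without a library, cholesterol synthesis had 1 to 4, metallothioneins and zinc 2 to 4, NRF2 targets 0 to 2, and each of the other 11 lists 0 to 1. Of 46 named genes that were called, 46 were called by DESeq2, 46 with the block and 40 with upper-quartile normalization. Fewer kept their call with a library left out. None changed direction in these settings. The days of these genes did not overlap, so leaving out a library could hardly turn the direction, and this is no test of it. The cause of these differences was not tested.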

Other observations

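The called genes below are on none of the lists and were picked after their values were seen, so they stand as single genes and not as a group. Genes with sterol or lipid roles were called in both directions. TMEM97, a sterol-binding membrane protein, fell from 102 and 102 CPM to 64.7 and 52.5 CPM (edgeR quasi-likelihood test, log2 fold change -0.80 ± 0.12, adjusted p = 0.024). MMAB is included for the place of its gene beside MVK and not for a sterol or lipid role. It fell from 31.6 and 31.3 CPM to 18.1 CPM in both libraries (-0.80 ± 0.13, adjusted p = 0.029). AACS, which activates acetoacetate for lipid synthesis, fell from 46.1 and 39.4 CPM to 24.9 and 23.9 CPM (-0.81 ± 0.13, adjusted p = 0.024), and HACD2, a dehydratase of fatty acid elongation, fell from 124 and 148 CPM to 67.7 and 60.8 CPM (-1.08 ± 0.14, adjusted p = 0.015). SOAT1, which stores cholesterol as ester, fell from 51.0 and 47.1 CPM to 31.7 and 27.6 CPM (-0.73 ± 0.14, adjusted p = 0.049), and LIPA, the lysosomal acid lipase, from 86.8 and 93.3 CPM to 53.5 and 64.3 CPM (-0.61 ± 0.12, adjusted p = 0.047). The acyl-CoA synthetase gene ACSF3 rose from 10.7 and 7.80 CPM to 21.2 and 24.7 CPM (1.31 ± 0.18, adjusted p = 0.015), and the retinol dehydrogenase gene RDH10 from 51.9 and 47.2 CPM to 74.3 and 120 CPM (0.97 ± 0.19, adjusted p = 0.047). SRD5A3, a reductase of polyprenol, rose from 40.4 and 31.8 CPM to 57.04 and 59.2 CPM (0.69 ± 0.12, adjusted p = 0.035), and PTGES2, a prostaglandin E synthase, from 31.7 and 30.3 CPM to 53.5 and 58.8 CPM (0.86 ± 0.13, adjusted p = 0.017). The apolipoprotein gene APOC1 rose from 48.7 and 44.8 CPM to 120 and 172 CPM (1.64 ± 0.20, adjusted p = 0.0098).

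GCAT, a mitochondrial enzyme of threonine and glycine metabolism, rose from 8.33 and 4.86 CPM to 31.2 and 23.8 CPM (2.06 ± 0.23, adjusted p = 0.0065). UCP2, an inner membrane carrier, rose from 284 and 247 CPM to 503 and 542 CPM (0.98 ± 0.11, adjusted p = 0.0066). SQSTM1, which encodes the autophagy receptor p62, rose from 174 CPM in both libraries to 276 and 411 CPM (0.98 ± 0.17, adjusted p = 0.035), and WARS1, the cytosolic tryptophan tRNA synthetase, from 94.5 and 84.0 CPM to 218 and 197 CPM (1.22 ± 0.15, adjusted p = 0.0098). GNAI2, an inhibitory G protein subunit, fell from 268 and 328 CPM to 137 and 147 CPM (-1.07 ± 0.12, adjusted p = 0.0065). All of these were also called with the table set as a block, as were all 156 called genes.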
